A study of Mus musculus with 5 samples.

Results

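The contact map of intraTAD2-1xBorCTCF limb buds was compared with that of intraTAD2 limb buds over the whole captured region around the Sonic hedgehog gene Shh (chromosome 5, 27,480,001 to 30,270,000, mm10). Both maps came from capture Hi-C, an assay that joins DNA ends lying close together in fixed nuclei, pulls out the joined pieces of 1 locus with probes and sequences them. They are 2 of the 5 samples of the series. All pairs of 5 kb bins were members of the comparison, and 149,878 of 155,961 bin pairs were kept after 10 of 558 bins with few partners had been left out.

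Both samples were mouse limb buds at E10.5 and were homozygous for their allele. The intraTAD2 embryos came from mating. The intraTAD2-1xBorCTCF embryos (1xBorCTCF below) were made by tetraploid aggregation, a procedure that grows embryos from stem cells combined with tetraploid hosts, whose own cells mainly contribute to tissues outside the embryo. The alleles and the embryo source therefore cannot be told apart in any difference below. The names place 1xBorCTCF on the intraTAD2 allele, but what was changed in either allele, and how many cell clones or embryos were used, is not given in the sources used here. The maps of 3 other samples and a wild-type map stand beside some values: intraTAD2-2xBorCTCF (2xBorCTCF, tetraploid aggregation), intraTAD2-i4CTCF (i4CTCF, mating), intraTAD3 (mating), all homozygous, and the authors' wild-type map, which belongs to no sample.

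A topologically associating domain (TAD) is a stretch of chromosome whose parts contact each other more often than they contact the neighbouring stretches. Its borders usually bind CTCF, a DNA-binding protein that halts the loop-extruding cohesin complex, and a CTCF site placed inside a domain can divide it or form a loop with another site facing it. The secreted Shh protein patterns the limb from thumb to little finger. Its limb enhancer, the ZRS, lies far away in an intron of Lmbr1, at the other end of the same TAD.

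Depth was 1,975,131 recovered contacts in 1xBorCTCF and 2,942,790 in intraTAD2. Each value below is a distance-normalised contact, in which the average of all kept bin pairs at the same distance in the same map is 1, and each difference is a log2 ratio of 1xBorCTCF over intraTAD2. With 1 library per group no test was possible. The 95% intervals in brackets cover counting error only and not the spread between embryos. A ratio counts as called higher or lower where it reached a log2 ratio of 0.32 in either direction, the call threshold below. Elsewhere higher and lower describe the 2 values beside their interval. Contact maps hold no expression, so the labelled tissue could not be checked against marker genes.

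The Shh TAD ran from 28,440,001 to 29,355,000 (915 kb) by the insulation minima of the wild-type map. Inside it, the 5 kb bin at 28,685,001 to 28,690,000 held an excess of contacts in the intraTAD2 map, with 3.63 times the median contacts per bin against 2.06 in wild type and 1.97 in intraTAD3. The bin had the largest such excess among TAD bins with at least the median contacts per bin in both the wild-type and the intraTAD3 map. It was chosen after the maps had been seen, using the intraTAD2 map but not the ratio of 1xBorCTCF to intraTAD2. It had 3.30 times the median in 1xBorCTCF, 2.09 in 2xBorCTCF and 2.36 in i4CTCF. It is called the site bin here, and lies 217.9 kb from the right-hand end of Shh (28,456,840 to 28,467,101) within the gene of the long noncoding RNA 9530036O11Rik (28,466,984 to 28,719,209). The annotation used here gives no exons, so whether it is exonic or intronic was not determined. The site bin divides the TAD into a Shh segment of 245 kb, which holds Shh, and a distal segment of 665 kb, which holds Rnf32 (29,192,745 to 29,227,635) and most of Lmbr1 (29,229,802 to 29,378,421). The rest of the captured region is the left flank, with En2, Cnpy1 and 4 other listed genes, and the right flank, with Mnx1 and 3 others.

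In 1xBorCTCF the Shh segment had less contact with the distal segment and more contact with the left flank than in intraTAD2, while contacts within each of these stretches stayed close to their level in intraTAD2. Contact between the Shh segment and the distal segment was 1.67 in 1xBorCTCF and 1.98 in intraTAD2, a log2 ratio of -0.24 (-0.26 to -0.22), from 86,974 and 153,724 contacts. Contact between the Shh segment and the left flank was 0.821 against 0.697, a log2 ratio of 0.24 (0.21 to 0.27). Neither mean reached the call threshold. They average 6016 and 8977 bin pairs, respectively.

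Contact within the left flank differed by a log2 ratio of -0.0021 (-0.014 to 0.0094), within the distal segment by 0.017 (0.0058 to 0.029), and within the right flank by 0.023 (0.013 to 0.034). Within the Shh segment the mean was 0.951 against 0.924, a log2 ratio of 0.04 (0.0083 to 0.076), although 4 of its 6 pairs of 50 kb blocks lay below 0. Contact of the Shh segment with the right flank was 0.822 against 0.881, a log2 ratio of -0.10 (-0.14 to -0.062). Contact of the distal segment with the right flank was 0.598 against 0.562, a ratio of 0.09 (0.073 to 0.11) in the other direction. Over the whole TAD the mean was 1.35 against 1.46, a log2 ratio of -0.11 (-0.12 to -0.10). Under another scaling, by the map total with no division by distance, that ratio was -0.024.

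**Figure D1:**
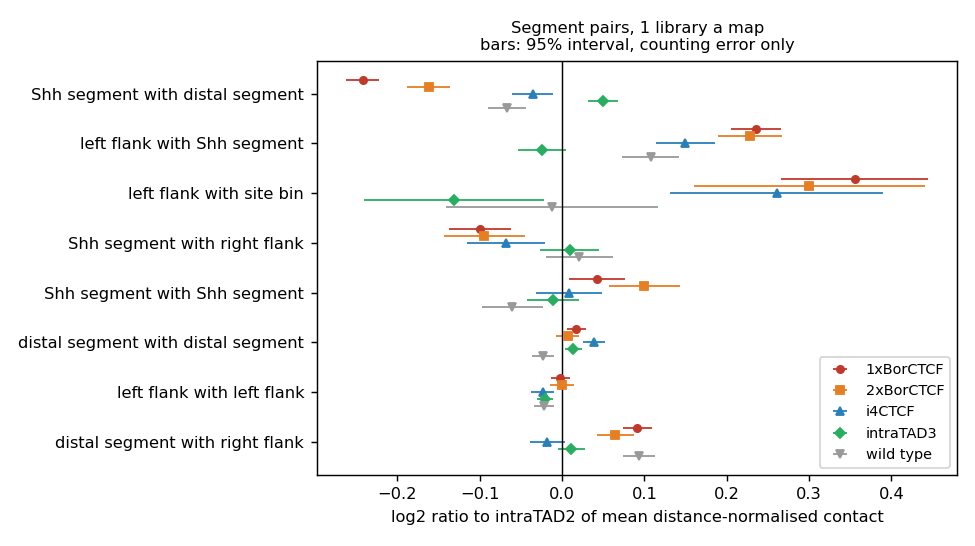
Log2 ratio to intraTAD2 of the mean distance-normalised contact (x axis) for 8 pairs of segments (y axis) in 5 maps, 1 library each, with bars for the 95% interval of counting error. In 1xBorCTCF the Shh segment with the distal segment is at -0.24 and the left flank with the Shh segment at 0.24, while contacts within the left flank and within the distal segment lie near 0.

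The other maps give these values a frame, although every ratio to intraTAD2 shares that 1 library. Contact of the Shh segment with the distal segment was 1.67 in 1xBorCTCF, 1.77 in 2xBorCTCF, 1.89 in wild type, 1.93 in i4CTCF, 1.98 in intraTAD2 and 2.05 in intraTAD3, so 1xBorCTCF was the lowest of the 6 maps. Against 2xBorCTCF, the map with the same embryo source, it was lower by a log2 ratio of -0.08 (-0.11 to -0.052). Contact of the Shh segment with the left flank was 0.821 in 1xBorCTCF, 0.816 in 2xBorCTCF, 0.773 in i4CTCF, 0.751 in wild type, 0.697 in intraTAD2 and 0.685 in intraTAD3. Here 1xBorCTCF and 2xBorCTCF differed by 0.0074 (-0.034 to 0.049), and the wild-type value lay between them and intraTAD2. Both maps from tetraploid aggregation thus had the lowest contact with the distal segment and the highest with the left flank, and the part of the embryo source in this cannot be told apart from that of the alleles.

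The difference was laid out over 50 kb blocks. Of 1470 pairs of blocks with 100 or more contacts in the 2 maps together, 99 were called higher, which is 6.73%, and 55 were called lower, which is 3.74%. Among the 48 block pairs of the Shh segment with the distal segment, 12 were called lower and 0 higher, 47 lay below 0, and the intervals of 35 lay below 0. Among the 76 block pairs of the left flank with the Shh segment, 22 were called higher and 0 lower. Calls were also made in other classes: of the distal segment with the right flank, 19 of 204 block pairs were called higher and 2 lower, of the Shh segment with the right flank 2 of 68 higher and 9 lower, and of the left with the right flank 21 of 308 higher and 25 lower. In the 171 block pairs within the left flank and the 66 within the distal segment, 0 were called in either direction. Within the right flank, 2 of 136 were called higher and 0 lower. Within 1000 kb, 55 of 890 block pairs were called higher and 19 lower, and 12 of the latter joined the Shh segment to the distal segment.

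The lowest ratio within 1000 kb, -0.60 (-0.76 to -0.44), joined the block just right of Shh (28,480,001 to 28,530,000) to a block of the distal segment that holds none of the listed genes (29,080,001 to 29,130,000), with contacts of 1.71 against 2.60. The next was the block of Shh itself (28,430,001 to 28,480,000) with that of Rnf32 and the near end of Lmbr1 (29,180,001 to 29,230,000), at 2.89 against 4.11, a log2 ratio of -0.51 (-0.65 to -0.36). The other 3 of the lowest 5 again started from the block just right of Shh, with ratios of -0.42 to -0.47. The highest ratio, 0.60 (0.33 to 0.88), joined the block of Shh to that of Paxip1, whose product acts in DNA repair and histone methylation, at 1.09 against 0.718. Of the other 4 highest, the block of Dpp6 with the end of the Shh segment next to the site bin stood at 0.53 (0.33 to 0.74). The remaining 3 joined the distal segment to the right flank or the left flank. All 5 of the highest rested on few contacts: 855 for Shh with Paxip1, 889 for the block of Dpp6, and 841 or fewer for the remaining 3. Each of the lowest 5 rested on 2495 or more.

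**Figure D2:**
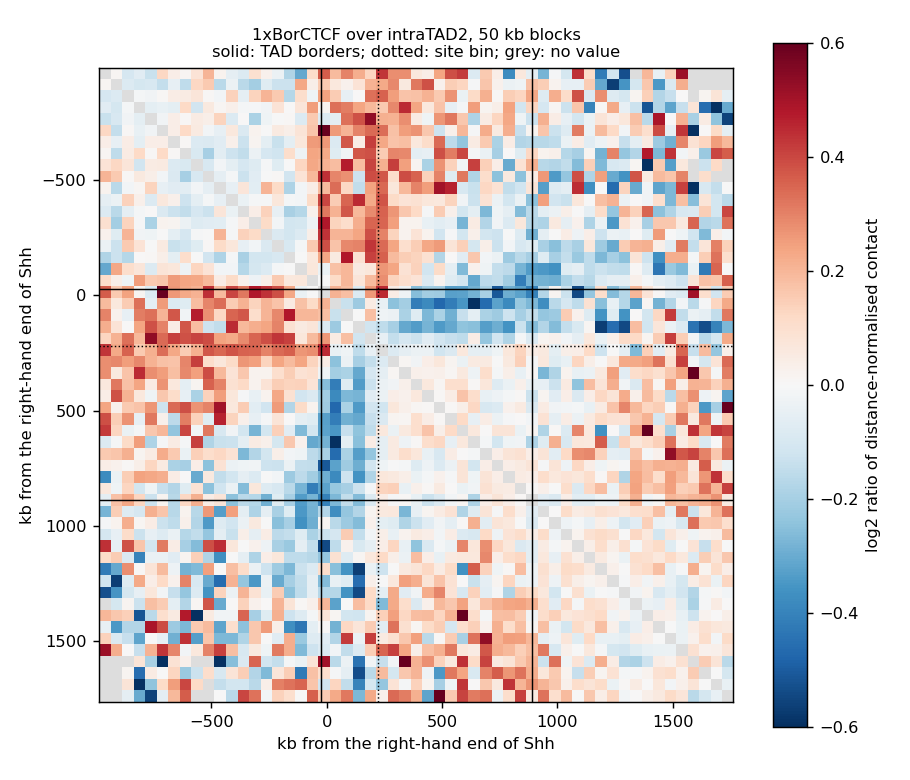
Log2 ratio of 1xBorCTCF over intraTAD2 for every pair of 50 kb blocks (both axes, kb from the right-hand end of Shh), with blue for lower and red for higher contact in 1xBorCTCF, 1 library each. Blue fills the rectangle between the Shh segment and the distal segment (12 of 48 block pairs called lower), and red that between the Shh segment and the left flank (22 of 76 called higher). In the squares on the diagonal, 0 of 171 block pairs are called within the left flank, 0 of 66 within the distal segment and 2 of 136 within the right flank.

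Single bin pairs have lower precision, and lower ones outnumbered higher ones, the reverse of the blocks. Of 41,317 bin pairs of 5 kb with 20 or more contacts, 5.84% passed 2-fold, with 2.36% higher and 3.48% lower. Between the Shh segment and the distal segment, 254 of 4208 bin pairs were lower (6.04%) and 32 were higher (0.76%). Between the left flank and the Shh segment, 154 of 1583 were higher (9.73%) and 41 lower (2.59%). The largest share of lower bin pairs was between the left and the right flank, with 106 of 1162 (9.12%), and within the left flank 180 of 10,473 were higher and 350 lower.

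Seen from Shh, contact with the TAD beyond the site fell and contact with the left flank rose. Of 52 blocks of 50 kb seen from Shh, 17 were called in either direction (32.7%), against 1 of 50 seen from Lmbr1 (2%), 8 of 51 from En2 (15.7%), 5 of 50 from Mnx1 (10%) and 2 of 51 from Rbm33 (3.92%). A block held up to 50 bin pairs seen from Shh, 40 from En2 and Mnx1, 230 from Rbm33 and 300 from Lmbr1. These shares therefore differ in precision and are not directly comparable. From Shh, 11 of 12 blocks in the distal segment lay below 0 and 8 were called lower. In the left flank 18 of 19 lay above 0 and 7 were called higher. In the right flank 1 of 16 was called higher, the block from 30,080,001 with Garem2 and Hadha at 0.46 (0.05 to 0.88), and 0 lower.

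The profile of Shh rose towards the far border of its TAD in both maps. In the block from 29,280,001, inside Lmbr1, the bins from 29,305,001 and 29,310,001 had been left out. Contact there was 6.34 in 1xBorCTCF and 8.0 in intraTAD2, a log2 ratio of -0.34 (-0.44 to -0.23). At the block from 29,180,001, with Rnf32, it was 3.06 against 4.35, or -0.51 (-0.63 to -0.38). The block directly after the site bin, from 28,730,001, was at 1.05 against 1.03, and the next, from 28,780,001, at 1.06 against 1.27, a log2 ratio of -0.25 (-0.39 to -0.12). From there to the far border every block lay below 0, and the lowest were those from 29,180,001, 29,080,001 and 28,930,001. On the other side, the block of En2, from 28,130,001, was at 1.63 against 1.06, a log2 ratio of 0.62 (0.51 to 0.74), while the 2 blocks of Rbm33 next to the border differed by 0.08 (-0.07 to 0.24) and 0.07 (-0.03 to 0.17).

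**Figure D3:**
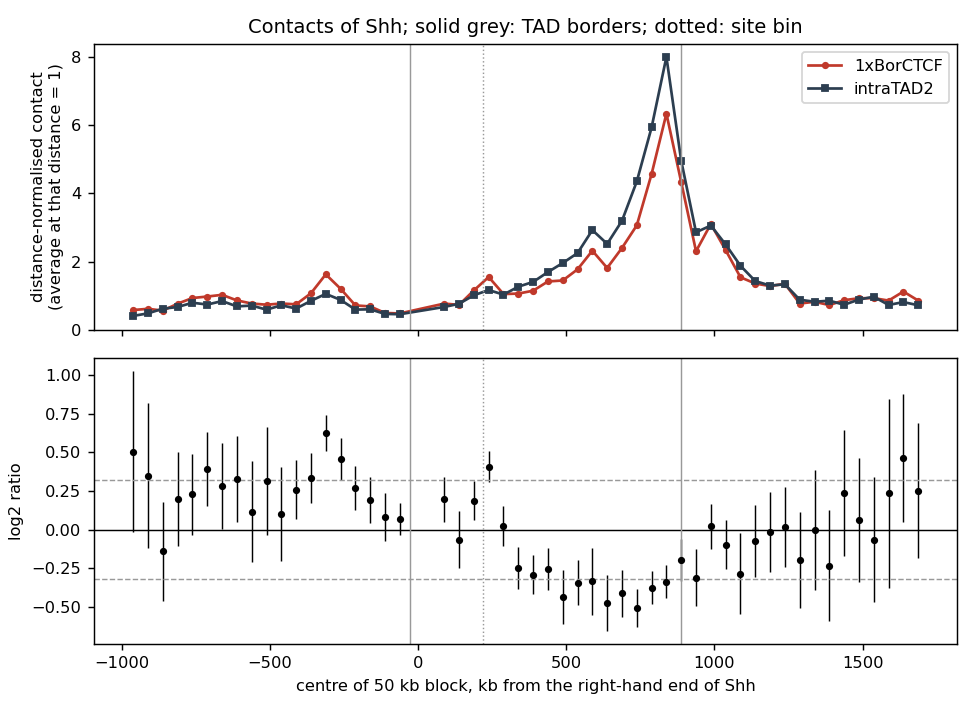
Upper panel, distance-normalised contact of Shh with each 50 kb block (y axis) along the region (x axis, kb from the right-hand end of Shh) in 1xBorCTCF and intraTAD2, 1 library each; lower panel, their log2 ratio with bars for the 95% interval of counting error and dashed lines at the call threshold. The peak in Lmbr1 reaches 6.34 in 1xBorCTCF and 8.0 in intraTAD2, and the ratio is above 0 in 18 of 19 blocks of the left flank and below 0 in 11 of 12 blocks of the distal segment.

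Seen from Lmbr1, the 1 block called was that of Shh, from 28,430,001, at 4.60 against 5.87, a log2 ratio of -0.35 (-0.43 to -0.28). Its neighbours on either side followed, at -0.30 (-0.37 to -0.22) from 28,480,001 and -0.28 (-0.34 to -0.22) from 28,380,001, the end of Rbm33. Seen from En2, the block of Shh was at 1.47 against 0.98, or 0.59 (0.41 to 0.77), and the block with the site bin, from 28,680,001, at 0.37 (0.13 to 0.62). The lowest 3 blocks from En2, at -0.51 to -0.54, rested on 337 or fewer contacts. Seen from Rbm33, the block inside Lmbr1 from 29,280,001 was called lower at -0.33 (-0.42 to -0.25) and a block of the right flank, from 30,130,001, higher at 0.33 (0.15 to 0.51). Seen from Mnx1, the lowest block was in the distal segment, from 28,830,001, at -0.60 (-0.91 to -0.28), and 3 of the 5 blocks called were lower.

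Of the balanced signal of Shh at distances from 20 kb upwards, its TAD held 53.9% (53.4 to 54.5) in 1xBorCTCF and 59.5% (59.1 to 60.0) in intraTAD2. The difference was -5.60 percentage points. The brackets have the width of the Clopper-Pearson interval of the share of recovered contacts, set around the balanced share. The percentages themselves are not shares of recovered contacts, of which the TAD held 16,913 of 30,500 in 1xBorCTCF and 26,861 of 44,146 in intraTAD2. Of the balanced signal, the distal segment held 34.3% against 41.2%, and the left flank 31.4% against 26.6%. The Shh segment held 19.0% against 18.0%, the right flank 14.7% against 13.8%, and the site bin 0.70% against 0.38%. In 2xBorCTCF the TAD held 57.9%, in i4CTCF 55.0%, in intraTAD3 59.8% and in wild type 54.2%, so this share in 1xBorCTCF was close to that of the wild-type map although the distal segment held 38.0% there.

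Among single genes, contact of Shh with the 12 listed genes was compared over windows of the gene and 1 bin either side. Over all windows of the same sizes and distances, which overlap each other, 9.64% were called higher and 5.52% lower, 15.2% in all. Both genes in the TAD were called lower, 3 of the 6 genes on the left were called higher and 0 lower, and 0 of the 4 on the right were called. These counts depend on the settings: Htr5a and Insig1 on the left and Mnx1 on the right reached the threshold under other settings, given with their values.

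Lmbr1, which holds the ZRS, had a contact with Shh of 4.78 in 1xBorCTCF and 6.04 in intraTAD2, from 3605 and 6271 contacts. The log2 ratio was -0.34 (-0.40 to -0.27), a value just past the call threshold. The bins from 29,305,001, 29,310,001 and 29,350,001, which lie in Lmbr1, had been left out. The values are thus for the rest of the Lmbr1 window, and contact with the ZRS alone was not measured. The other maps gave 5.38 in 2xBorCTCF, 5.63 in wild type, 5.80 in i4CTCF and 6.38 in intraTAD3, so that 1xBorCTCF was the lowest of all 6. Rnf32, a RING finger gene beside Lmbr1, stood at 3.05 against 4.35, a log2 ratio of -0.51 (-0.63 to -0.39). It was 3.45 in 2xBorCTCF, 3.70 in wild type, 4.11 in i4CTCF and 4.54 in intraTAD3. Without the balancing factors of the bins, the ratio for Lmbr1 was -0.21, under the threshold, and that for Rnf32 was -0.45. The Lmbr1 value was -0.27, also under the threshold, when the maps were scaled by their totals. With no bins left out it was -0.318 (-0.38 to -0.26), just under the threshold.

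On the left, En2, a homeobox gene of the midbrain and hindbrain, had a contact with Shh of 2.21 against 1.36, a log2 ratio of 0.70 (0.54 to 0.85) from 727 and 672 contacts. It was 2.24 in i4CTCF, 1.80 in wild type, 1.48 in intraTAD3 and 1.44 in 2xBorCTCF. Against 2xBorCTCF, the En2 contact in 1xBorCTCF was higher by 0.62 (0.38 to 0.85), and it is thus a point where the maps of the same embryo source parted. Paxip1 stood at 1.06 against 0.726, or 0.55 (0.33 to 0.77), and at 1.21 in 2xBorCTCF. Cnpy1, a relative of the canopy regulators of growth factor signalling, stood at 1.00 against 0.764, or 0.39 (0.27 to 0.52), and at 0.818 in 2xBorCTCF and 1.05 in wild type. The intervals of the other 3 included 0: Rbm33, the gene nearest to the border, at 0.09 (-0.0055 to 0.18), Htr5a, a serotonin receptor, at 0.25 (-0.05 to 0.55), and Insig1, a regulator of sterol synthesis, at 0.10 (-0.20 to 0.39). With the gene alone as the window, Htr5a was at 0.37 (-0.083 to 0.83) and Insig1 at 0.44 (-0.078 to 0.97), and with 2 bins either side Htr5a was at 0.39 (0.085 to 0.70) and Insig1 at 0.22 (-0.015 to 0.45).

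On the right, Mnx1, a homeobox gene of motor neurons, had a contact with Shh of 4.56 against 4.29, with a log2 ratio of 0.09 (-0.11 to 0.28). Scaled by the map totals the ratio was 0.33 (0.14 to 0.52), and without the balancing factors 0.36 (0.18 to 0.55), both past the call threshold. Nom1, at -0.09 (-0.29 to 0.11), Ube3c, a ubiquitin ligase, at -0.0015 (-0.16 to 0.15), and Dnajb6, a chaperone, at -0.17 (-0.44 to 0.11), also had intervals that included 0. Between listed genes other than Shh there were 65 pairs, of which 0 were called higher and 1 lower, Insig1 with Nom1 at -0.33 (-0.66 to 0.0078), with a median log2 ratio of -0.04 over all. Rbm33 was in 5 of the 8 pairs whose interval lay below 0. Rbm33 with Lmbr1 was 2.44 against 2.88, a log2 ratio of -0.24 (-0.29 to -0.20).

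The same genes were set against the whole Shh segment, which holds many more contacts than Shh alone. The 6 genes on the left had a median of 0.25, close to the 0.24 of the whole left flank with that segment. En2 was at 0.36 (0.24 to 0.49), Paxip1 at 0.32 (0.21 to 0.42), Cnpy1 at 0.29 (0.22 to 0.37), Insig1 at 0.20 (0.026 to 0.38) and Rbm33 at 0.14 (0.087 to 0.19), and Htr5a was at 0.08 (-0.056 to 0.21). With the distal segment, 0 of these 6 were called, and Rbm33 was at -0.12 (-0.15 to -0.088). Lmbr1 with the Shh segment was 2.58 against 3.08, a log2 ratio of -0.26 (-0.29 to -0.22), and Rnf32 with the Shh segment was at -0.30 (-0.37 to -0.24). On the right, Nom1 was at -0.14 (-0.26 to -0.016), Ube3c at -0.10 (-0.18 to -0.019), Dnajb6 at -0.18 (-0.33 to -0.032) and Mnx1 at -0.015 (-0.17 to 0.14), beside -0.10 for the whole right flank. With the distal segment the intervals of both included 0, at 0.017 (-0.0031 to 0.036) for Lmbr1 and -0.0041 (-0.031 to 0.023) for Rnf32.

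Where along the TAD the loss ended was read from stretches of 15 kb. Each stretch was compared in its contact with the distal segment and, separately, with the left flank, leaving out partners within 100 kb. Of 16 stretches of the Shh segment, the intervals of 14 lay below 0 in contact with the distal segment, with a median of -0.20. The stretch that covers most of Shh was at -0.33 (-0.39 to -0.28). The loss became smaller towards the site bin, from -0.26 (-0.32 to -0.19) at the stretch from 28,620,001 to -0.11 (-0.18 to -0.048) from 28,635,001, and the last 2 stretches before the site had intervals that included 0. In the first 300 kb beyond the site, 0 of 19 stretches lay below 0 by their interval, and the median was 0.012. To the left of the Shh border, the loss went on into the end of Rbm33, where 5 of 6 stretches lay below 0.

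The gain with the left flank did not end at the site bin, but it did not reach the far border. It lay above 0 by its interval in 13 of 16 stretches of the Shh segment, with a median of 0.26. In the first 300 kb beyond the site this held for 14 of 19 stretches, with a median of 0.18. Towards the far border the ratio was below 0, as at the stretch from 29,310,001 with -0.22 (-0.32 to -0.12). Lmbr1 with the left flank was at -0.099 (-0.13 to -0.070), and the whole distal segment with the left flank at 0.044 (0.028 to 0.061). The stretch from 28,500,001 stood apart, with -0.72 (-0.82 to -0.61) for the distal segment and -0.07 (-0.24 to 0.10) for the left flank. It is thinly covered, with 7141 contacts with the distal segment where its right-hand neighbour had 21,204. The stretches from 28,425,001 and 28,575,001, with 6283 and 8038 such contacts, were at -0.18 and -0.28. Whether coverage had a part in these values was not tested. Unbalanced contacts per bin, relative to the median of each map, differed between the maps by more than the call threshold in 49 of 548 bins, with 42 lower in 1xBorCTCF, and 7 of the 49 were among the 47 kept bins of the Shh segment. Without those bins the Shh segment was at -0.23 with the distal segment and at 0.25 with the left flank.

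**Figure D4:**
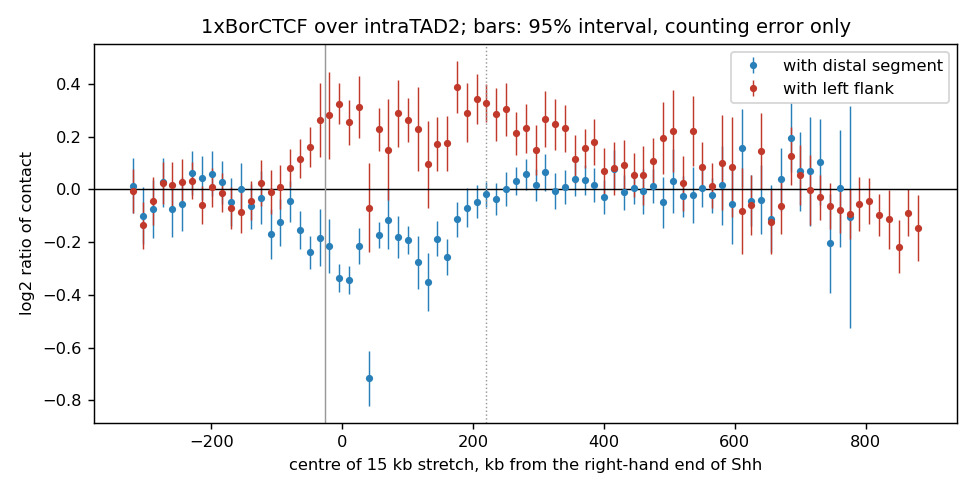
Log2 ratio of 1xBorCTCF over intraTAD2 (y axis) for the contact of each 15 kb stretch (x axis, kb from the right-hand end of Shh) with the distal segment and with the left flank, with bars for the 95% interval of counting error, 1 library each. The contact with the distal segment is below 0 in the Shh segment (median -0.20). It is near 0 in the first 300 kb beyond the dotted line of the site bin (median 0.012). The contact with the left flank has a median of 0.26 in the Shh segment and 0.18 in those 300 kb, and lies below 0 near the far border.

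The site bin itself contacted Shh more in 1xBorCTCF. Contact of Shh with the site bin and 1 bin either side was 2.26 in 1xBorCTCF and 1.34 in intraTAD2, a log2 ratio of 0.76 (0.62 to 0.89), from 1122 and 971 contacts. It was 2.5 in 2xBorCTCF, and 1.14, 1.13 and 1.13 in i4CTCF, intraTAD3 and wild type. The values were thus higher in 1xBorCTCF and 2xBorCTCF than in the other 4 maps, with 1 library each. These 2 samples share Bor in their names and are also the only samples of the series made by tetraploid aggregation. Which of these goes with the higher values was not tested. How many other window pairs split the maps in this way was not counted. The site bin alone stood at 2.61 against 1.37, a log2 ratio of 0.93 (0.76 to 1.10), its left neighbour at 2.23 against 1.26 and its right neighbour at 1.93 against 1.37. In 2xBorCTCF the site bin was at 3.25, above 1xBorCTCF, with a log2 ratio of 1xBorCTCF over 2xBorCTCF of -0.32 (-0.55 to -0.083).

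The rise was 0.82 (0.57 to 1.06) at the left neighbour of the site bin and 0.49 (0.20 to 0.78) at its right neighbour. From Shh, contact went from 2.61 at the site bin to 1.65 at 10 kb to its left, a log2 ratio of 0.43 (0.15 to 0.72), and 1.33 at 10 kb to its right, a ratio of 0.09 (-0.33 to 0.51). Single bins further out also had intervals above 0, at 15 kb to its right with 0.40 (0.042 to 0.76) and at 30 kb to its left with 0.77 (0.36 to 1.19). Seen from the site, 10 neighbouring bins from 28,435,001 to 28,480,001 had intervals above 0. The largest ratio, 1.19 (0.66 to 1.72) from 74 and 60 contacts, was at the bin from 28,435,001, next to the TAD border and to the left of Shh. Bins outside this run also had intervals above 0, such as 28,400,001 in Rbm33 at 0.56 (0.16 to 0.95) and 28,570,001 at 0.46 (0.16 to 0.76). The bin from 28,585,001 lay below 0, at -0.80 (-1.32 to -0.28). The region holds 508 window pairs as large and as far apart as Shh and the site window. A higher ratio was found in 1 of them, which overlapped Shh with the site window. The highest among the 499 that did not overlap it reached 0.71, with its first bin at 28,310,001, so ratios of nearly this size occurred elsewhere in these maps.

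The site bin also contacted the left flank more, at 1.03 against 0.806, a log2 ratio of 0.36 (0.27 to 0.44). This contact was 0.992 in 2xBorCTCF, 0.965 in i4CTCF, 0.799 in wild type and 0.736 in intraTAD3. Contact of the site bin with the distal segment was 1.5 in both 1xBorCTCF and intraTAD2, a log2 ratio of -0.0031 (-0.061 to 0.054). Of the listed genes, Rbm33 at 0.44 (0.31 to 0.56), Insig1 at 0.43 (0.045 to 0.82), Cnpy1 at 0.40 (0.22 to 0.58) and En2 at 0.37 (0.052 to 0.69) were called higher in contact with the site window. How many of all windows of these sizes and distances passed the threshold was not counted, so these calls have no share beside them. Insig1 rested on 123 and 143 contacts and En2 on 174 and 203. Paxip1 was at 0.31 (0.077 to 0.55) and Lmbr1 at 0.11 (0.025 to 0.20). For the other 6 genes the intervals included 0.

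Insulation, the log2 mean contact between the 100 kb on either side of a point relative to the mean of the map, was lower at the site in 1xBorCTCF, where a low value means few contacts across the point. It was -0.16 in 1xBorCTCF and -0.015 in intraTAD2, a difference of -0.14 (-0.19 to -0.098). The local minimum of 1xBorCTCF lay at the site bin, as did that of intraTAD3, while that of intraTAD2 lay 5 kb away and those of the other 3 maps 35 kb away. The other maps had -0.028 in 2xBorCTCF, 0.020 in i4CTCF, 0.090 in intraTAD3 and 0.12 in wild type. The difference of 1xBorCTCF from 2xBorCTCF was -0.13 (-0.19 to -0.073), although Shh contacted the site bin more in 2xBorCTCF. The site was among the 3 points of 519 with the largest gain of insulation, and the other 2, at 28,675,001 and 28,680,001, adjoin it. The difference was -0.014 with windows of 50 kb and -0.19 with windows of 200 kb, and it was -0.044 without the balancing factors.

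At the TAD border next to Shh, insulation was -0.90 in 1xBorCTCF and -1.01 in intraTAD2, weaker by 0.11 (0.032 to 0.18), and in 2xBorCTCF it was -0.76. The largest loss of insulation in the region was 0.19 (0.11 to 0.27) at 28,475,001, on the right-hand side of Shh. At the border inside Lmbr1 the values were -0.74 and -0.76, a difference of 0.012 (-0.044 to 0.067). The minima that mark the 2 borders fell in the same bins in both maps, 28,445,001 and 29,370,001. Compared with these borders, the dip at the site remained shallow.

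**Figure D5:**
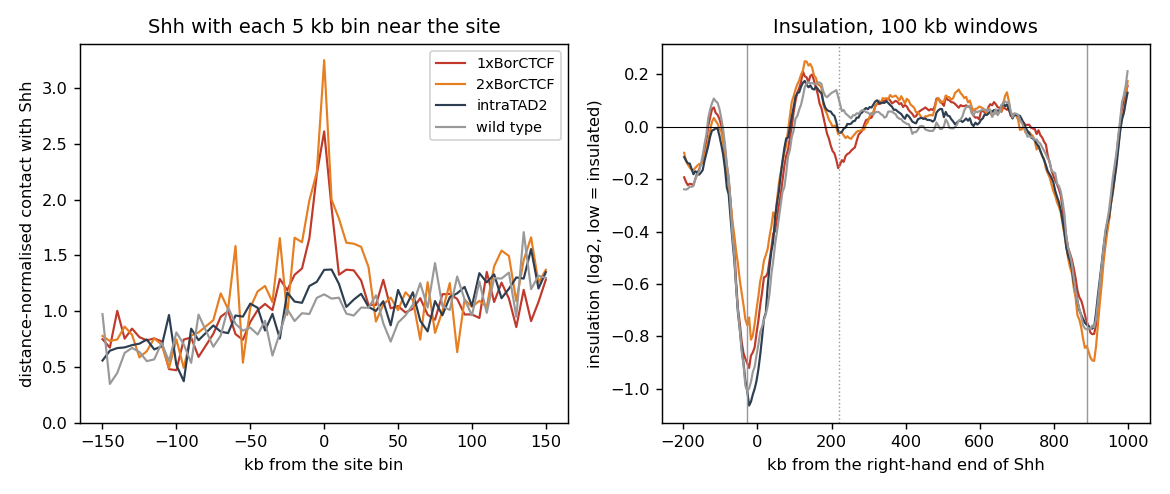
Left, distance-normalised contact of Shh with each 5 kb bin (y axis) around the site bin (x axis, kb) in 4 maps; right, insulation in 100 kb windows (y axis) along the TAD (x axis, kb from the right-hand end of Shh) in the same maps, 1 library each. Contact of Shh peaks at the site bin in 1xBorCTCF (2.61) and 2xBorCTCF (3.25) but not in intraTAD2 (1.37), and insulation at the dotted line is lowest in 1xBorCTCF (-0.16).

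The direction of contacts shifted along the Shh segment. For each bin with 1000 or more contacts in the 2 maps together, contacts 20 to 500 kb to its left were set against those to its right. All 47 bins of the Shh segment had a larger left share in 1xBorCTCF, the intervals of 38 lay above 0, and the median difference was 0.32 on the log2 scale. Of the 302 other bins, 85 lay above 0, and their median was -0.064. The 3 bins that shifted furthest to the left, at 28,600,001, 28,515,001 and 28,505,001, all lay in the Shh segment. They were at 0.53 (0.31 to 0.76), 0.51 (0.37 to 0.66) and 0.51 (0.20 to 0.83). The first had 1914 contacts in 1xBorCTCF against 5929 in intraTAD2, and the third 954 against 1627. The 3 that shifted furthest to the right, at 28,285,001, 28,310,001 and 28,295,001, lay left of the border near Rbm33, at -0.48, -0.43 and -0.40.

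Focal contacts were picked in the mean of the 4 maps outside the comparison, as the 10 positions that stood highest above their surround. Their log2 ratios ranged from -0.48 to 0.78. En2 with Shh was at 2.88 against 1.67, a log2 ratio of 0.78 (0.57 to 1.00). A position at 28,115,001, between Insig1 and En2, stood with Shh at 1.83 against 1.38, or 0.40 (0.09 to 0.72), and with Cnpy1 at 2.34 against 1.85, or 0.34 (0.17 to 0.51). The lowest 2 joined the bin at the Shh border to a bin in Lmbr1, at -0.38 (-0.86 to 0.09), and to a bin in the distal segment, at -0.48 (-1.15 to 0.18), and both intervals included 0. The position highest above its surround, En2 with Mnx1 over 1310 kb, was at 10.4 against 9.46, a log2 ratio of 0.13 (-0.06 to 0.32), and Shh with Mnx1 was at 0.19 (-0.06 to 0.44). Both intervals included 0.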

How the data were processed

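The authors deposited 1 map per sample, listing pairs of 5 kb bins with a balanced signal. Per the labels' protocols, fixed limb buds were digested with DpnII and captured with custom SureSelect probes. A mapping quality of 30 and Knight-Ruiz balancing, which gives every bin the same total, are named per the file names. Bowtie2 2.2.6 appears in the submitters' processing notes, as do mm9 and mm10, without their roles. Duplicate removal is not given in the sources used here. Gene positions come from RefSeq (GRCm38.p6). Over 201 shifts of up to 500 kb, 3 gene pairs had their highest contact at 0 kb.

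Whole contacts were recovered from the deposited signal (100% whole within 0.01), with 106 undefined bin pairs in 1xBorCTCF and 0 in intraTAD2. The recovery and the intervals were tried on simulated maps with Poisson counts. That is the error the intervals assume, so a wider spread was not tested. Bins with under 25% of the median partners in any map were left out. Intervals are weighted Poisson. Python 3.11.15, numpy 2.4.6, pandas 2.3.3, scipy 1.17.1 and matplotlib 3.10.9 were used. In the files, 1 column of values belongs to no sample, the wild-type map.

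Genes were 13 around the region, all reported, plus the 5 highest and 5 lowest block pairs within 1000 kb and the 3 highest and lowest profile blocks. The members and lists were chosen with earlier results of these data known. Alternatives covered distance scaling, balancing, gene windows, bin filters, borders and block sizes.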

Additional observations from a re-analysis of the deposited data

How the results depend on the processing

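No paired analysis was possible because each genotype had 1 library. Of the values that answer a comparison, 56 stayed within their counting error, or for counts within 1.5 times, under an alternative, 23 moved further and 1 went from an interval above 0 to a negative value. Within the left flank, at -0.0021, the sign also changed under 3 of 6 alternatives, over a range of -0.045 to 0.0067. Shh with Lmbr1 and with En2 are counted here. For the other 10 genes, 63 values stayed and 7 moved, and signs changed for Ube3c (-0.097 to 0.21), Nom1 (-0.14 to 0.087), Dnajb6 (-0.21 to 0.052) and Rbm33 (-0.0092 to 0.20). The split at the site bin, its neighbours without the site bin, insulation at the site in other windows, and leaving out bins of differing contacts were chosen after seeing the data.

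Scaling by the map total, with no division by distance, gave -0.27 for Shh with Lmbr1, -0.024 inside the TAD, 0.20 for the TAD with the left flank, 0.11 with the right flank, -0.040 within the left flank, -0.20 for the Shh segment with the distal segment, and -0.0077 within the right flank, where the sign turned from 0.023. In that scaling the difference in long-range contacts stays in: contacts at 900 kb or more held 10.2% of the signal in 1xBorCTCF and 8.90% in intraTAD2. Without bin factors the same values were -0.21, -0.083, 0.056, 0.056, -0.045, -0.21 and 0.040, and further Shh with the site window was 0.90 and insulation 0.20 at the Shh border, 0.11 at the Lmbr1 border and -0.044 at the site. A trimmed mean gave -0.40 for Shh with Lmbr1, and 50 kb windows gave -0.014 for insulation at the site. For these the cause was not tested. Of block pairs, 935 of 25 kb, 7 of 100 kb and 9 of 50 kb at 1.5-fold passed, and 50,199 bin pairs passed 2-fold with no minimum of contacts.

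Contacts with Shh were fewest for Htr5a (169 and 216), Insig1 (170 and 235) and Dnajb6 (213 and 280), which widens their intervals.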
